A study of Mus musculus with 6 samples.

Results

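WT-only footprints were the Argonaute (Ago) footprints that 2 or 3 of the wild-type (WT) macrophage libraries held and that no APOBEC1 knockout (KO) library held. They were chosen from the numbers of libraries that the authors deposited beside each footprint. They numbered 1752, or 27.9% of all footprints in the table, and the other footprints numbered 4518. Of the WT-only footprints, 1640 were held by 2 WT libraries and 112 by 3. The authors' combined KO occupancy was listed at 0 for 290 of them and was above 0 for the other 1462, and these sets are described separately. Because library numbers chose the footprints, their KO and WT values are given as a description without a test. Their sequence, position, genes and miRNA sites were not used in the choice.

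The data are Ago HITS-CLIP libraries, made by sequencing the RNA that an Ago antibody pulls down after cross-linking, from C57BL/6 bone-marrow-derived macrophages. The 6 libraries came from 3 WT mice and 3 APOBEC1 KO (Apobec1-/-) littermates, used as 3 pairs at 6 to 12 weeks of age. Marrow cells of both genotypes were matured for 7 days with 20 ng/mL M-CSF, the growth factor that drives macrophage differentiation, and the antibody was 2A8. Occupancy is the authors' ratio of footprint signal to the RNA-Seq expression of the transcript, with 1 combined value per genotype. The KO and WT values therefore have no replicate check, and the depth of each library is unknown. In all, 3753 footprints were held by 2 or 3 WT and 0 or 1 KO libraries, against 321 held by 2 or 3 KO and 0 or 1 WT libraries, and KO libraries alone held 29. The part of library depth in this imbalance, and so in the choice of WT-only footprints, was not tested. Bulk CLIP cannot tell fewer cells of a type from less bound RNA per cell. Of 10 macrophage marker genes 8 carried a footprint, and none of the T cell, B cell, neutrophil, fibroblast and dendritic cell markers did. Of 4 osteoclast markers 1 did, Nfatc1, with 2 footprints. Apobec1 itself had 3 footprints, all held by 2 or 3 KO libraries, so none was WT-only. These lie in its 3′ UTR, and which part of the gene was disrupted is not stated in the labels.

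Ago proteins carry a miRNA whose seed, the bases next to its 5′ end, pairs with short sites that lie mostly in 3′ UTRs. The silencing complex then recruits deadenylases and lowers translation and stability of the mRNA. APOBEC1 deaminates cytidine to uridine in mRNA, preferring AU-rich sequence upstream of an element called the mooring sequence. In macrophages many of its known targets lie in 3′ UTRs, the region that miRNAs also use.

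The WT-only footprints with the highest WT occupancy among those listed at 0 in KO mostly had a G+C content below the table's median. So that their letters can be seen, the 28-nt stretch with the fewest G and C bases is printed for 5 of those with high WT occupancy, from the mm9 sequence on the footprint's strand, 5′ to 3′, with G and C in capitals.
Rmnd5a, chr6:71341257-71341284, minus strand: tatGGataGtttttCCtttGaattaaat
Gm16867, chr14:69983816-69983843, minus strand: aaaatGGCttttCCtGtaGaGtCttCtt
Rbl1, chr2:156971744-156971771, minus strand: tttCattattaatGtaCaaaatataaat
Gclc, chr9:77641257-77641284, plus strand: attaaCaGtGtattttaataaCattGta
Plekhf2, chr4:10916987-10917014, minus strand: attCGatttGaaaCtCatCaCtaGtata
The Rbl1 stretch held 3 G or C bases of 28 and the Gclc stretch 5, against 10 in Gm16867. Each stretch was picked for its low G+C content, so it illustrates the footprint and is no comparison with others.

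Mature miRNAs are printed next, with the seed (bases 2 to 8) in capitals, for 7 families whose WT-only shares or counts are described further on. All sequences are from RefSeq (table build GRCm38.p6).
miR-26a-5p: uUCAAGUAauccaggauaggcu
miR-181a-5p: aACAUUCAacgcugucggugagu
miR-221-3p: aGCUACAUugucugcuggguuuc
miR-23a-3p: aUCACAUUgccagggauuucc
miR-15a-5p: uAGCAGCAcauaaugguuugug
miR-29a-3p: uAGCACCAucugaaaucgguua
let-7a-5p: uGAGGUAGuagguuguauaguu
The sites for the first 4 seeds hold 2 or 3 G or C bases of 7, and those for the last 3 hold 4. Below are the matching 28-nt windows of mm9 for WT-only footprints, with the 7-nt match to the seed in capitals.
Tnrc6a, miR-26, chr7:130336601-130336628, plus strand: catatcagtttgaaTACTTGAatcatgc
Psmd3, miR-26, chr11:98557315-98557342, plus strand: tactctgtggcactTACTTGAttgactg
Socs5, miR-181, chr17:87536100-87536127, plus strand: agctaaatctaagtTGAATGTtctctag
Qk, miR-221, chr17:10401488-10401515, minus strand: atatatttttggaaATGTAGCattttat
Tmx4, miR-23, chr2:134421814-134421841, minus strand: gtgaagtgcatgaaAATGTGAttttcta
3110043O21Rik, miR-15/16, chr4:35138650-35138677, minus strand: ctaattgttgtcttTGCTGCTttactgt
Celf2, miR-29, chr2:6465965-6465992, minus strand: aagctgcgtcatgtTGGTGCTtctgtgg
Eif2c2, let-7, chr15:72932148-72932175, minus strand: cagatgcataaaagCTACCTCtgacttc
Each window is a match of letters and does not show that the miRNA was bound there. The Psmd3 window lies past the annotated 3′ end of that gene's UTR.

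WT-only footprints had a median WT occupancy of 0.406 (quartiles 0.208 and 0.701, range 0.00459 to 4.75) and a median KO occupancy of 0.148 (quartiles 0.0454 and 0.303, highest 1.41). Of these footprints 1054 were at least 2-fold lower in KO, against 24.2% of all footprints, a share that the choice by library numbers fixes in part. The count is made of 764 footprints above 0 in KO and of all 290 listed at 0, which enter through the pseudocount of 0.00161. With a pseudocount of 1 it was 79. At least 2-fold higher in KO were 43, against 18.9% of all footprints. In the plot of KO against WT occupancy the footprints of 3 WT libraries lie mostly above the line at which WT is 2 times KO, and those of 2 WT libraries spread on both sides of it. The 112 footprints of 3 WT libraries had a median WT occupancy of 0.879 and a median KO occupancy of 0.116, and 109 of them were at least 2-fold lower in KO.

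**Figure D1:**
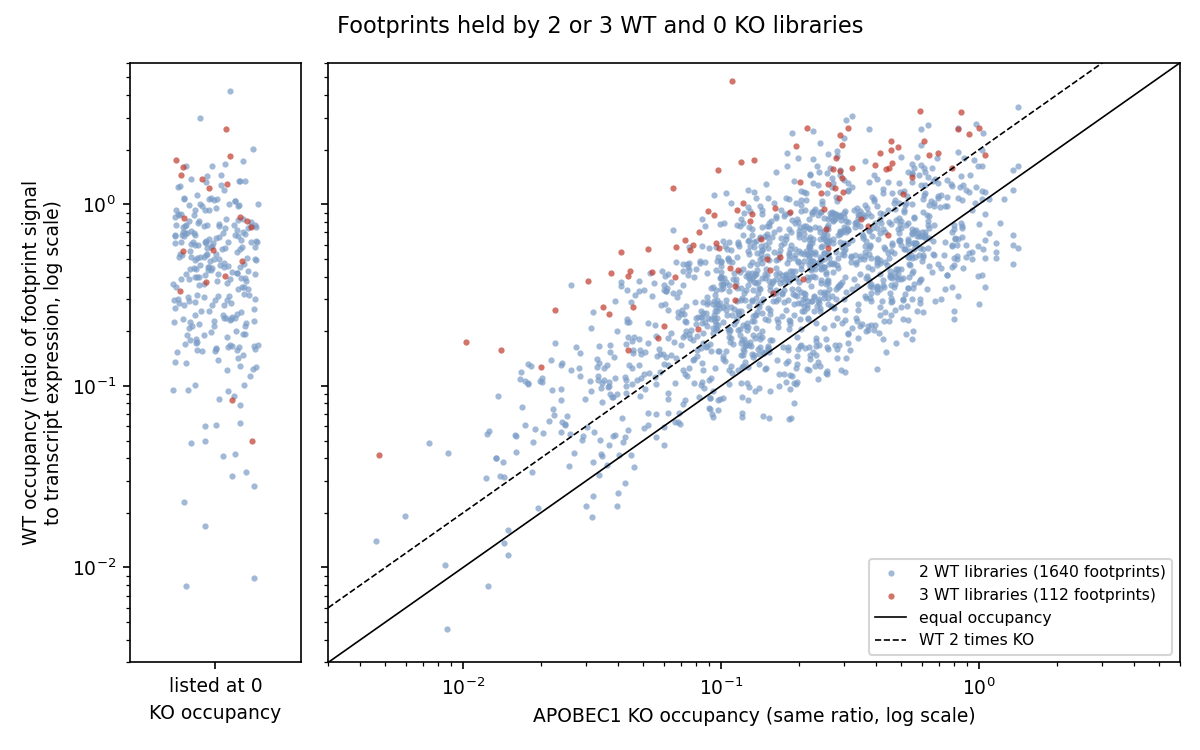
KO occupancy (horizontal, log scale) against WT occupancy (vertical, log scale) of the 1752 WT-only footprints, 1 point each, coloured by 2 or 3 WT libraries; the strip at left holds the 290 listed at 0 in KO, spread sideways at random. KO values reach 1.41 although no KO library held these footprints, and 282 points lie below the line of equal occupancy.

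A footprint that no KO library held could thus still have a KO value. Among the 1462 with a value above 0, the median was 0.196 in KO and 0.399 in WT, with a median log2 ratio of KO over WT of -1.07 (95% interval of the median -1.15 to -0.99, over footprints). KO was above WT in 282 of them. Just outside the choice, the 1819 footprints of 2 WT libraries and 1 KO library had a median KO occupancy of 0.375 (0.00845 to 3.27) and a median WT occupancy of 0.339. Just inside it, the 1640 footprints of 2 WT libraries and 0 KO libraries had medians of 0.151 and 0.394. With 3 WT libraries, the medians outside (1 KO library, 182 footprints) were 0.393 in KO and 0.988 in WT.

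Many KO values were not individual to a footprint. Of the 1462 KO values above 0, 66.2% (95% Wilson interval 63.7% to 68.6%) were equal, to all digits deposited, to that of another footprint. The share was 33.6% for footprints of 2 or 3 WT libraries and 1 KO library and 12.6% for those of 2 or 3 KO libraries. Equal WT values were fewer, at 27.7% of the WT-only footprints. The KO value 0.259 was listed for 10 WT-only footprints on 10 genes of 8 chromosomes, among them Ube3a, Eif2ak2 and Brd3, while their WT values ran from 0.385 to 1.90. Likewise 0.551 was listed for 10 on Aff4, Tmx4, Nr3c1 and others, with WT values from 0.30 to 1.68. The labels do not say how such shared values arose, and KO values above 0 are given here as listed.

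The 290 footprints listed at 0 in KO were 4.63% of all footprints, and every footprint listed at 0 was WT-only. Their median WT occupancy was 0.460 (quartiles 0.234 and 0.747), against 0.399 for the WT-only footprints above 0 in KO. For single footprints no fold is given against a value listed at 0, and counts and medians over all WT-only footprints take them in through the pseudocount. Of these 290, 20 were held by 3 WT libraries.

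Rmnd5a, a subunit of the CTLH ubiquitin ligase complex, had the highest WT value among them, 4.18 in its 3′ UTR. Gm16867 had 2.62 in an annotated exon without a coding sequence at that place, and it was held by 3 WT libraries. A footprint of Rbl1, a retinoblastoma-family repressor of cell cycle genes, had a WT value of 2.03 and lay 110 nt from the annotated 3′ end. For Gclc, the catalytic subunit that begins glutathione synthesis, the WT value was 1.84, held by 3 WT libraries. These 4 spanned G+C contents from 23.1% (Rbl1) to 47.1% (Gm16867), on either side of the table's median of 42.9%.

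Further footprints listed at 0 in KO with high WT values lay in genes of varied roles. Plekhf2, an endosomal lipid-binding protein, had a WT value of 1.75, and Fnip1, a partner of folliculin, 1.72. Nr2c2, a nuclear receptor, stood at 1.63 and the tyrosine kinase gene Abl2 at 1.62. The cytokine signalling suppressor Socs5 had 1.45 in 3 WT libraries, over a miR-181 match. Stim2, a calcium sensor of the endoplasmic reticulum, had 1.44, Fndc3a 1.43 over a miR-30 match, and the clathrin adaptor gene Clint1 1.38. All of these were listed at 0 in KO and lay in 3′ UTRs.

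Among WT-only footprints above 0 in KO, the highest WT value was 4.75, with 0.111 in KO, at chr5:123183126-123183192 on the minus strand, where no gene is annotated on that strand. It was held by 3 WT libraries and its G+C content was 31.3%. Arid5b, a DNA-binding chromatin factor, followed with 3.44 in WT and 1.41 in KO. The O-glycosylation enzyme gene Galnt7 had 3.25 and 0.592 over a miR-30 match 186 nt past the stop codon, held by 3 WT libraries. In 3110043O21Rik the footprint over the miR-15/16 match printed above had 3.21 and 0.850. The caspase activator gene Apaf1 had 2.90 and 0.306, and Ireb2, which controls iron-related mRNAs, 2.75 and 0.976.

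Several regulators of transcription and splicing had WT values in the same range. Luc7l3, a splicing factor, had 2.74 in WT and 0.635 in KO. The histone methyltransferase gene Nsd1 had 2.64 and 0.215 in 3 WT libraries, with matches for miR-148 and miR-27 in 1 footprint. Mitf, a transcription factor of lysosomal and osteoclast genes, had 2.61 and 0.376. On chromosome 18, the apoptosis inducer Pmaip1 had 2.63 and 0.310 over a miR-181 match, and the transcription factor gene Tcf4 had 2.61 and 0.598. The deubiquitinase gene Usp21 had 2.61 and 0.826, in 3 WT libraries, 61 nt from the 3′ end of its UTR.

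The lowest KO to WT ratios among WT-only footprints above 0 in KO, with WT at or above the table median of 0.406, were the chromosome 5 footprint without a gene, Son, Tmed7, Hnrnpab and Tanc1. Son, a splicing co-factor, had 0.0654 in KO and 1.23 in WT. Hnrnpab, an RNA-binding protein, had 0.12 and 1.72, and Tanc1, a scaffold protein, 0.188 and 2.47. Tmed7, a cargo receptor of the secretory pathway on chromosome 18, had 0.0977 and 1.55.

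At the other end, KO exceeded WT although no KO library held the footprint. Ccdc93 had 1.41 in KO and 0.575 in WT, Pik3c2a, a lipid kinase of endocytosis, 1.17 and 0.505, Sfmbt1 1.35 and 0.594, and Naa15, an acetyltransferase subunit, 1.17 and 0.549. The KO value of Pik3c2a was equal to that of Naa15, and that of Ccdc93 to that of Arid5b.

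Base composition, which played no part in the choice, differed between WT-only footprints and the others. The median G+C content was 35.3% (95% interval of the median 33.9% to 36.8%) for those listed at 0 in KO and 39.4% (38.8% to 40.0%) for those above 0. It was 42.9% (42.4% to 43.4%) for footprints of 2 or 3 WT libraries and 1 KO library, and 45.1% (44.6% to 45.5%) for those of 2 or 3 KO libraries. The intervals of these 4 sets do not overlap. Footprints are not replicates of a genotype, so no test is given. The lower G+C content came mainly with less C and more A: C made up a median 19.4% of the bases of WT-only footprints against 24.6% in those of 2 or 3 KO libraries, and A 30.1% against 26.2%. For U the medians were 30.4% and 28.4%, and for G 19.1% and 19.7%.

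Put the other way, the WT-only share fell with G+C content across the table. In the bin of lowest G+C content (15.5% to 31.2%, 627 footprints), 49.3% (45.4% to 53.2%) were WT-only, and 12.3% were listed at 0 in KO. In the highest bin (55.4% to 73.1%, also 627), 12.8% (10.4% to 15.6%) were WT-only and 0.638% were listed at 0. WT occupancy gave a different shape: in bins of 627 footprints, the WT-only share was 21.5% at WT values up to 0.0941, 36.8% between 0.528 and 0.701, and 13.9% in the bin of highest values.

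**Figure D2:**
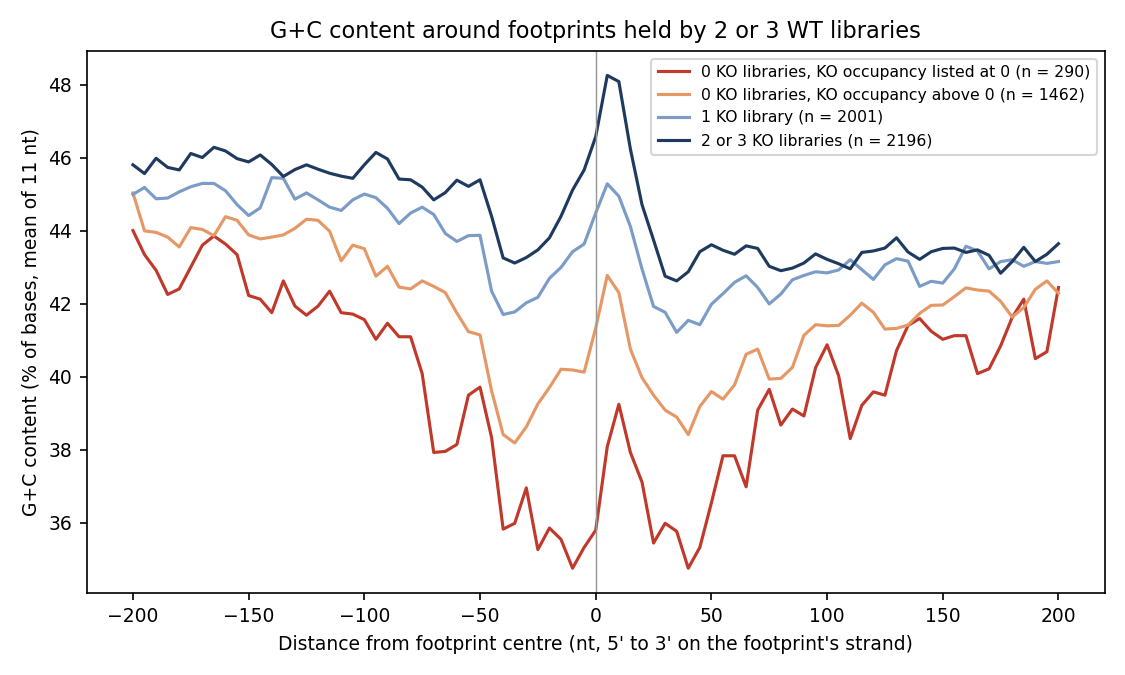
G+C content (percent of bases, mean over 11 nt) by distance from the footprint centre, for footprints of 2 or 3 WT libraries, as 1 line each for WT-only footprints listed at 0 in KO, WT-only footprints above 0 in KO, footprints of 1 KO library and footprints of 2 or 3 KO libraries. At the centre the lines stand at 35.8%, 41.3%, 44.5% and 46.6%, and 200 nt downstream they lie between 42.3% and 43.7%.

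The difference was larger over the footprint than beside it. The plot of G+C content by distance shows the 4 sets apart over the footprint and closer together away from it. At the centre, footprints listed at 0 in KO had 35.8% G+C and footprints of 2 or 3 KO libraries 46.6%, and 200 nt downstream the values were 42.5% and 43.7%. In the flanks (200 nt on each side, starting 100 nt from the footprint) the medians were 41.2% for footprints listed at 0, 42.8% for WT-only footprints above 0 and 44.5% for those of 2 or 3 KO libraries. Upstream, at 200 nt, the range from 44.0% to 45.8% was also narrower than at the centre.

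Within single genes the compared footprints share their gene, but their place along its transcript is not held fixed. The expression divisor is that of the same gene where it has 1 transcript. In 688 genes that carried both WT-only and other footprints of at least 2 WT libraries, the WT-only footprints had the lower median G+C content in 464 and the higher in 221. The median difference was -3.63 percentage points (95% interval over genes -4.46 to -2.74). For the flanks the same count was 320 lower and 357 higher, with a median difference of 0.25 points (-0.12 to 0.75). In the 230 genes with at least 2 of each kind, a restriction chosen after seeing the data, WT-only footprints had the lower G+C content in 171 and the higher in 59. WT occupancy was also lower for the WT-only footprints in 426 of the 688 genes, and its part in the G+C difference was not tested. Among footprints with WT occupancy at or above the table median, the G+C difference from those of 2 or 3 KO libraries was -6.44 points, against -6.34 over all.

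**Figure D3:**
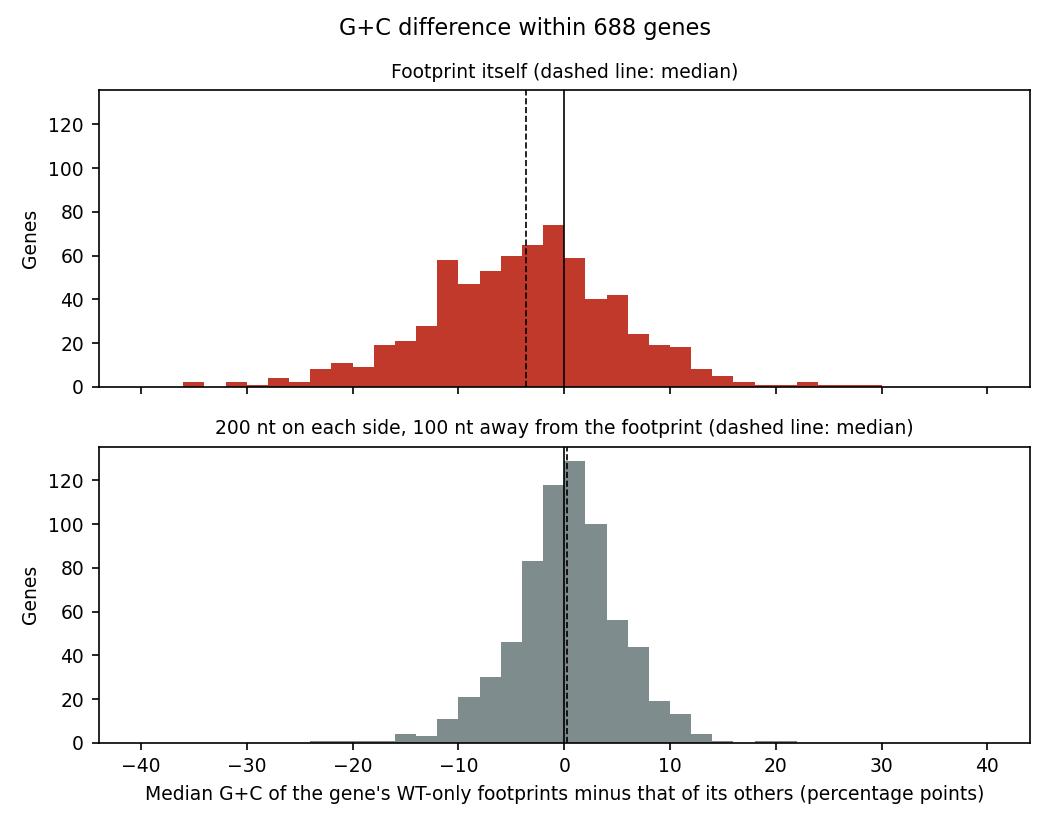
Histograms over 688 genes of the median G+C content of a gene's WT-only footprints minus that of its other footprints (percentage points), for the footprint itself (top) and its flanks (bottom); the solid line marks 0 and the dashed line the median. The top histogram is shifted to the left, with a median of -3.63, and the bottom one is centred near 0, with a median of 0.25.

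Short motifs were counted in the same footprints. Each motif was searched on the footprint's strand only, and a match is a description. AUUUA, the core of AU-rich decay elements, was in 15.4% (13.8% to 17.2%) of WT-only footprints, 10.5% (9.26% to 11.8%) of those of 2 or 3 KO libraries and 11.9% of all footprints. AAAAA was in 19.9% against 10.8% (13.6% of all), and UUUUU in 16.8% against 10.6% (13.0% of all). The poly(A) signal AAUAAA was in 8.90% against 5.51% (7.00% of all), and reached 11% in footprints listed at 0 in KO. UGUANAUA, the Pumilio element, was in 4.85% against 3.69% (3.81% of all) with overlapping intervals, UAUUUAU, which contains AUUUA, in 1.88% against 1.64% (1.80% of all), and GGAC in 16.9% against 18.2% (17.9% of all).

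The motif differences depended on G+C content. Below the table's median G+C content, AUUUA was in 21% (18.8% to 23.5%) of WT-only footprints and 18.8% (16.4% to 21.5%) of those of 2 or 3 KO libraries. At or above the median it was in 4.53% and 4.87%, so its sign turned there. AAAAA kept a gap below the median, 26.6% (24.1% to 29.2%) against 20.1% (17.6% to 22.8%). UUUUU stood at 23.2% and 19.6% there, with overlapping intervals. AAUAAA stood at 12% (10.3% to 14%) and 9.86% (8.07% to 12%) below the median, and at 2.85% and 2.59% at or above it. Its intervals overlapped on both sides of the median. UGUANAUA stood at 6.49% and 6.46% below the median, and at 1.68% and 1.83% at or above it, where its sign turned. UAUUUAU turned its sign in both sets, to 2.77% against 3.06% below the median and 0.168% against 0.685% at or above it. GGAC also turned its sign in both sets. It was in 12.4% against 12.2% below the median and in 25.7% (22.3% to 29.3%) against 22.1% (20% to 24.5%) at or above it.

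The mooring sequence is the element downstream of edited cytidines in known APOBEC1 targets. It was searched as a loose 10-nt pattern: A or U, A or G, AU, C or U, A, any base, UAU. A match need therefore not be a mooring sequence. The pattern matched in 10 WT-only footprints (0.571%, 0.310% to 1.05%). It matched in 4 of those of 2 or 3 KO libraries (0.182%, 0.0709% to 0.467%) and in 21 of all footprints (0.335%). Below the table's median G+C content it was in 0.692% of WT-only footprints. The shares there were 0.608% for footprints of 1 KO library and 0.34% for those of 2 or 3 KO libraries. At or above the median these 3 shares were 0.336%, 0% and 0.0761%. These windows are shown because of APOBEC1's role, with the 10-nt match in capitals, for the 4 WT-only footprints with the highest WT occupancy among these. They were chosen after their values were seen.
Ccdc132, chr6:3553006-3553033, plus strand: ttactctcaTAATTATTATgtgactaca
Tor3a, chr1:158584103-158584130, minus strand: ctaaactccAAATTAGTATaataacgag
Magt1, chrX:103166061-103166088, minus strand: tcttgctaaAAATCAGTATaacttataa
Tnks, chr8:35894600-35894627, minus strand: tccaacaaaAAATCAATATtctctaaat
Ccdc132, a vesicle-tethering protein, had 1.73 in WT and 0.360 in KO. Tor3a had 1.09 in WT and was listed at 0 in KO. Magt1, a magnesium transport and glycosylation protein, had 1.02 and 0.488, and Tnks, a poly-ADP-ribosyl transferase, 0.587 and 0.788, so KO was the higher there. The intervals of the WT-only share and of the other shares overlap. Whether a cytidine was edited in any of them was not analysed here.

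The deposit is named as one of 3′ UTR footprints, and 96.7% of all footprints overlapped a 3′ UTR on their own strand. Shares in 3′ UTRs were thus largely set by the deposit. Of the WT-only footprints 1688 (96.3%) overlapped one, against 97.1% of footprints of 2 or 3 KO libraries. A further 14 lay in coding sequence, 1 in a 5′ UTR, 8 in other exons, 9 in introns and 32 outside any gene annotated on their strand. Ube3a and Usp34, a ubiquitin ligase and a deubiquitinase, each had a coding-sequence footprint, with 1.90 in WT and 0.259 in KO, and 1.17 and 0.915. An intronic one lay in Ppp2r5c, a phosphatase subunit, with 1.92 and 0.413 in 3 WT libraries.

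Along the 3′ UTR the median position of WT-only footprints was 46.6% (44.3% to 49.1%) of the way from the stop codon, and that of footprints of 2 or 3 KO libraries 43.3% (41.3% to 45.4%), with overlapping intervals. In 678 genes with both kinds in the 3′ UTR, WT-only footprints were the farther from the stop codon in 385 and the nearer in 293. The median difference was 5.76 percentage points (2.30 to 9.97). Among genes with at least 2 of each kind, WT-only footprints were the farther in 123 of 226 and the nearer in 103. The median difference there was 3.77 points (-1.33 to 9.97), an interval that includes 0. Within 100 nt of the annotated 3′ end lay 8.12% (6.91% to 9.52%) of the WT-only footprints, 11% (7.85% to 15.2%) of those listed at 0 in KO and 6.05% (5.11% to 7.14%) of those of 2 or 3 KO libraries. The interferon regulatory factor gene Irf8 had such a footprint, 33 nt from the end, held by 3 WT libraries with 0.746 in WT, 0 in KO and a G+C content of 21.6%. Psmd3, a proteasome subunit, had one whose middle lay 1 nt from the end, with 1.93 in WT and 0.829 in KO. It held matches for miR-146 and miR-26, and the miR-26 match lay past the annotated 3′ end.

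The footprints of this kind were a little longer. Their median length was 74 nt against 69 nt for those of 2 or 3 KO libraries, and 6.39% (5.34% to 7.64%) had the minimum of 63 nt, against 12.7% (11.3% to 14.1%). Footprints of 1 KO library, with a median of 73 nt and 6.80% at 63 nt, were close to the WT-only ones.

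Most WT-only footprints shared their gene with other footprints. They fell on 1109 of the 2222 genes that carried any footprint. In 711 of these genes other footprints were present too, and the remaining genes, 333 with a single footprint and 65 with 2 or more, had WT-only footprints alone. Of the 1720 WT-only footprints on a gene, 1243 shared that gene with a footprint that a KO library held. Where a gene had 2 or more footprints, the nearest neighbour of a WT-only footprint was WT-only in 32.8% (30.4% to 35.3%), and that of another footprint was WT-only in 24.8% (23.4% to 26.2%). Neighbours share their gene, its composition and its expression divisor.

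Qk, an RNA-binding regulator of splicing, carried the largest number, 10 of its 26 footprints. Their WT values ran from 0.109 to 1.77 and their KO values from 0.139 to 0.598, and none was listed at 0. Its other footprints reached 11.9 in WT and 6.29 in KO. The strongest of the 10 lay over the miR-221 match printed above and had a G+C content of 24.1%. Nucks1, a chromatin-associated protein, had 7 of 15, with WT values from 0.512 to 2.64. The prostaglandin synthase gene Hpgds had 6 of 8, the condensin subunit gene Ncapg2 6 of 8, the adhesion adaptor gene Lims1 6 of 9 and Cggbp1 6 of 10. Pdxk, Ccdc50 and Rod1 had 6 of 11, 12 and 16.

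Mtpn, an inhibitor of actin capping, shows how such footprints were mixed with others along 1 UTR, with 7 WT-only footprints among 13. In the order of the minus strand, from the stop codon, the first WT-only one had 0.237 in WT and 0.0938 in KO. The next pair had the same WT value of 0.108, with KO values of 0.0334 and 0.0472. Farther along came 0.337 in WT with 0.0432 in KO, and 0.170 with 0.0905. One over a miR-26 match, 546 nt from the 3′ end, had 1.68 in WT, the highest of the gene, and was listed at 0 in KO. The last had 0.214 in WT and 0.371 in KO. The other 6 footprints of Mtpn, each held by 1 or 2 KO libraries, had WT values from 0.105 to 0.535 and KO values from 0.112 to 0.861.

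Among genes whose footprints were all WT-only, 4 had 4 each. They were the nuclear import receptor gene Ipo9, the nuclear receptor coactivator gene Pnrc2, the membrane-anchored ubiquitin-like gene Ubl3 and the cohesin subunit gene Rad21. Their summed WT occupancies were 2.77, 1.45, 0.952 and 0.948, and the KO sums were 1.52, 0.246, 0.389 and 0.194. Of those with 3, Lrch3 had 3.01 in WT and 0.184 in KO, with 2 of 3 listed at 0, and Nampt, the rate-limiting enzyme of NAD salvage, had 0.715 and 0.158. The transcription factor gene Elf1 had 1.41 and 0.407.

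A few pairs of footprints overlapped on opposite strands. Of 8 such pairs in the table, 2 consisted of WT-only footprints. One lay at Ctdsp1, a phosphatase of RNA polymerase, where the plus-strand footprint had 0.429 in WT and 0.0445 in KO and the minus-strand footprint 0.404 and 0.0435, each held by 3 WT libraries. The other, at the pyrophosphate transporter gene Ank, had 0.230 and 0.152 on the plus strand and 0.184 and 0.135 on the minus strand. In a further pair only the minus-strand footprint, at Sh3bp5, was WT-only, with 1.23 in WT and 0.275 in KO. Its plus-strand partner at Capn7, held by 2 KO libraries, had 0.775 and 1.29.

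Sites for 26 miRNA families were searched as 7-nt matches to the seed on the footprint's strand, using 34 mature RefSeq sequences. At least 1 site was in 18% (16.3% to 19.8%) of WT-only footprints, 18.6% of footprints of 1 KO library and 20.9% (19.3% to 22.7%) of those of 2 or 3 KO libraries. The share was 17.9% in footprints listed at 0 in KO and 18% in those above 0. The median signed offset of sites from the footprint centre was 2 nt in WT-only footprints and 0 nt in those of 2 or 3 KO libraries. Such a median shows that sites lay about equally on both sides, and not that they lay at the centre. Within 16 nt of the centre lay 53.3% and 55.3% of the sites. For the 16 families whose site holds 3 or fewer G or C bases, the shares were 13.0% and 13.4%. For the other 10, with 4 or more, they were 5.65% (4.66% to 6.83%) and 8.61% (7.50% to 9.85%). Over all 26 families, the share of WT-only footprints with a site minus that of footprints of 2 or 3 KO libraries was -2.92 points. It was -3.38 points below the table's median G+C content of the footprint and -2.41 at or above it.

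By family, the WT-only share of all footprints with a site ranged from 12.8% to 45.5%, around the 27.9% of the table. It was highest for miR-26, at 45.5% (20 of 44, 31.7% to 59.9%), and miR-181, at 43.2% (32 of 74, 32.6% to 54.6%), and these were the only 2 whose interval lay wholly above 27.9%. Both sites hold 2 G or C bases, as do those of miR-23 and of 3 families under 27.9%: miR-155 at 26.8%, miR-21 at 22.2% and miR-30 at 21.4%. Next among families with over 5 footprints were miR-221 with miR-222, at 37.8% (14 of 37), and miR-23, at 32.6% (31 of 95), with intervals that included 27.9%. Lowest were let-7, at 12.8% (6 of 47, 5.98% to 25.2%), miR-29 at 14.3% (8 of 56, 7.42% to 25.7%), miR-125 at 14.3% (6 of 42, 6.72% to 27.8%) and miR-103 with miR-107 at 16.4% (10 of 61, 9.16% to 27.6%). These sites hold 4 or 5 G or C bases. Below the table's median G+C content, a miR-26 match was in 1.47% (0.92% to 2.34%) of WT-only footprints. It was in 0.794% (0.385% to 1.63%) of those of 2 or 3 KO libraries and 0.507% (0.217% to 1.18%) of those of 1 KO library. For miR-181 these shares were 2.51% (1.75% to 3.58%), 1.81% (1.12% to 2.93%) and 0.811% (0.411% to 1.59%). The WT-only interval was apart only from that of 1 KO library for miR-181. With 26 families and no test, such extremes are a description, and families share footprints with each other.

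**Figure D4:**
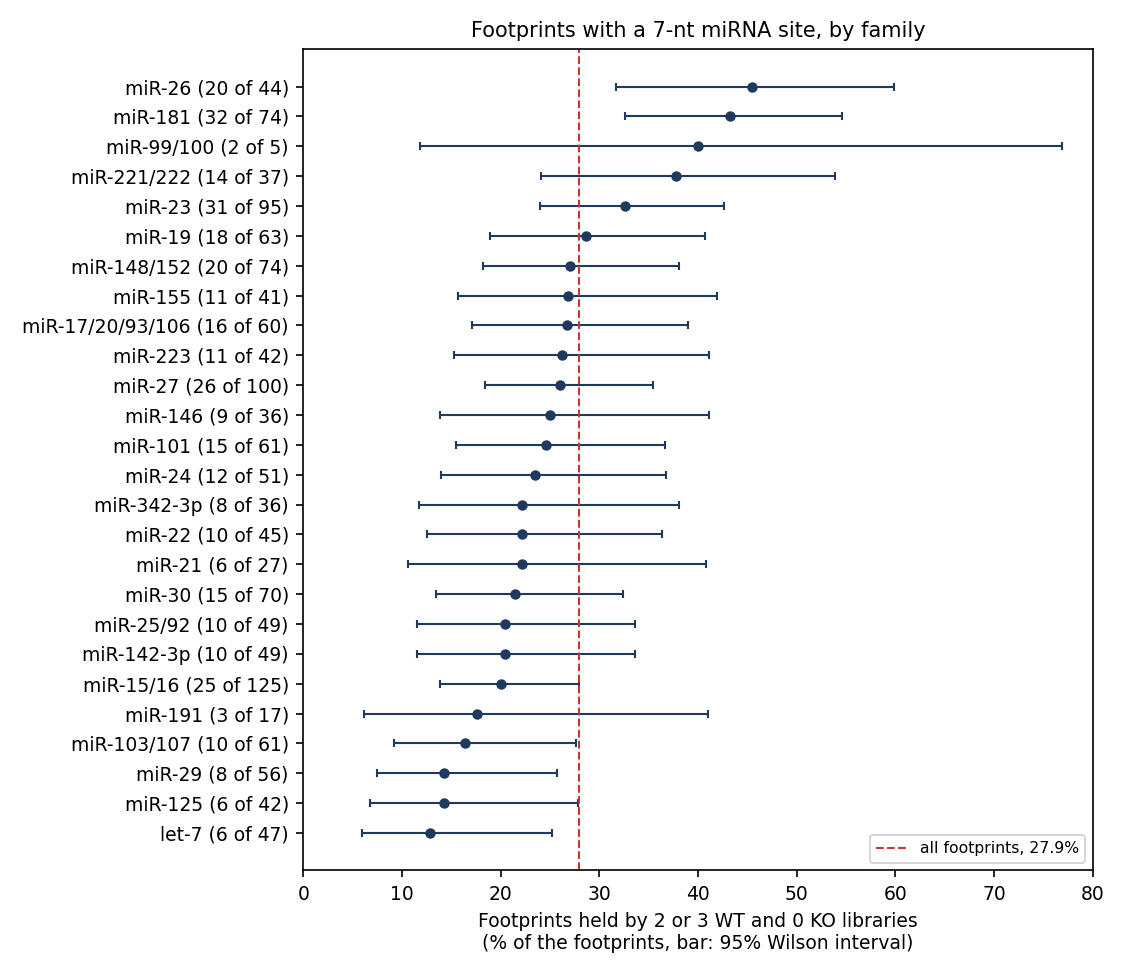
WT-only share (percent) of all footprints with a 7-nt match to the seed of each of 26 miRNA families, as points with 95% Wilson intervals; the numbers in brackets are WT-only footprints and all footprints with a site, and the dashed line is the 27.9% of the whole table. miR-26 and miR-181 lie at the top with 45.5% and 43.2%, and let-7 at the bottom with 12.8%.

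For 4 families picked after their values were seen, counts are given apart for footprints listed at 0 and above 0 in KO, without a test. The miR-23 match was in 11 of the 290 listed at 0 (3.79%, 2.13% to 6.66%), in 20 of the 1462 above 0 (1.37%, 0.887% to 2.10%) and in 1.59% of footprints of 2 or 3 KO libraries. Below the median G+C content the first 2 shares were 4.37% (2.39% to 7.85%) and 1.83% (1.15% to 2.92%), with overlapping intervals. The miR-15/16 match was in 0 of the 290, which allows a share of up to 1.31% by the Wilson interval, and in 25 of the 1462 (1.71%, 1.16% to 2.51%), and these intervals overlap. let-7 also had 0 among the 290, and 6 among the 1462 (0.410%, 0.188% to 0.892%). Outside these 4 families, miR-19, miR-155, miR-125, miR-191 and miR-99/100 had 0 among the 290 as well. Their WT-only footprints numbered 18, 11, 6, 3 and 2. For miR-342-3p, 5 of its 8 WT-only footprints were listed at 0, against 290 of all 1752 WT-only footprints. They included Lrch3 (1.60 in WT, 3 WT libraries) and Gzf1 (1.07). For miR-29, not among these 4 families, 4 of its 8 were listed at 0.

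Single members show the range of values behind these counts. Over a miR-26 match, Tnrc6a, the scaffold that links Ago to deadenylases, had 1.80 in WT and 0.279 in KO in 3 WT libraries, and the small GTPase gene Rhoq 1.51 and 0.239. Over a miR-23 match, Tmx4 had 1.68 and 0.551 and Elmo1, a Rac activator of phagocytosis, 1.07 and 1.25. Xiap, an inhibitor of caspases, and Smcr8, an autophagy regulator, were listed at 0 in KO over miR-223 matches, with 0.701 and 0.805 in WT. Rab10, a GTPase of membrane traffic, had 2.10 and 0.196 over a match to the miR-17 seed in 3 WT libraries. Over miR-155 matches, the highest WT values lay in Hn1l (0.929 in WT, 0.145 in KO) and in the kinase gene Cdk14 (0.919 and 0.346).

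Gene groups were compared by the share of their footprints that were WT-only. The lists were written by hand and say nothing of how a gene's expression changed. The ubiquitin system had the highest share, 36.9% (45 of 122, 28.8% to 45.7%), and RNA-binding and splicing proteins followed with 34.4% (83 of 241, 28.7% to 40.6%). Cell cycle and DNA damage genes had 33.9% (20 of 59) and transcription factors and chromatin regulators 30.0% (75 of 250). These were the 4 of 14 lists above the 27.9% of the table. Macrophage identity genes had the lowest share, 12.8% (10 of 78, 7.12% to 22.0%), then reported APOBEC1 editing targets with 18.2% (16 of 88, 11.5% to 27.5%) and the interferon response with 20.6% (20 of 97). Actin and adhesion genes had 21.7% (50 of 230) and lysosome and autophagy genes 21.8% (29 of 133). The median G+C content of all footprints of a list was 38.1% for RNA-binding proteins, 41.2% for the ubiquitin system, 42.5% for macrophage identity genes and 38.2% for the editing targets, and its part in the shares was not tested. Among footprints with WT occupancy at or above the table median, the share of RNA-binding proteins was 28.8% (42 of 146), that of the ubiquitin system 42% (29 of 69) and that of all footprints 27.9%. No test of a list is given.

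**Figure D5:**
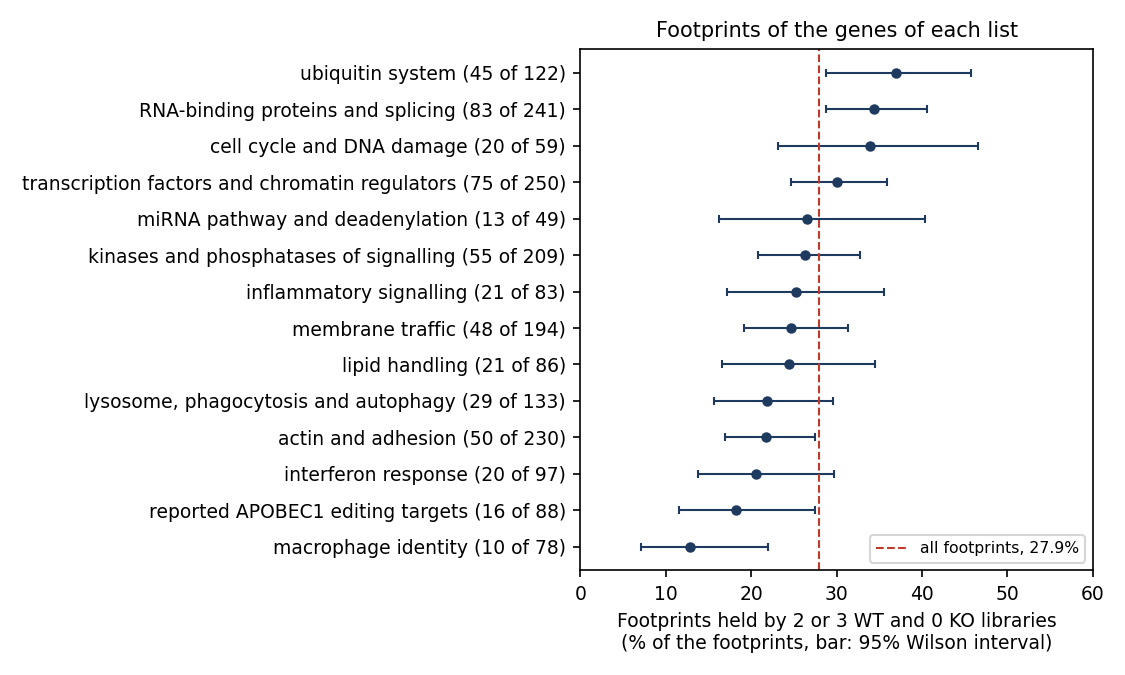
WT-only share (percent) of the footprints of each of 14 gene lists, as points with 95% Wilson intervals; the numbers in brackets are WT-only footprints and all footprints of the list, and the dashed line is the 27.9% of the whole table. The ubiquitin system (36.9%) and RNA-binding proteins (34.4%) lie above the line with their whole interval (at WT occupancy at or above the median, 42% and 28.8%), and macrophage identity genes lie lowest at 12.8%.

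In the ubiquitin system, besides Ube3a and Usp34, the ligase gene Wwp1 had 1.45 in WT and 0.586 in KO, 143 nt from the 3′ end. Cell cycle genes included the cohesin gene Stag2, with 2.52 and 0.228 over a miR-22 match, and the kinase inhibitor gene Cdkn1b, with 1.63 and 0.180. Rnf2, the catalytic subunit of a Polycomb complex, had 2.48 and 1.04. Of the miRNA machinery itself 13 of 49 footprints (26.5%) were WT-only, among them Tnrc6a, the deadenylase gene Cnot7 (1.16 and 0.257) and the Ago gene Eif2c2 (0.951 and 0.337, with a second footprint over let-7 at 0.684 and 0.209).

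Of the immune lists, macrophage identity is described first. Irf8 and the inhibitory receptor gene Cd200r1 (0.668 in WT, listed at 0 in KO) were the macrophage identity genes of highest WT value. Of inflammatory signalling, 21 of 83 (25.3%, 17.2% to 35.6%) were WT-only, and 14 of 36 (38.9%) at WT occupancy at or above the table median, so its side of the table's 27.9% turned. Its highest WT values were those of Socs5, the lipopolysaccharide receptor gene Tlr4 (0.977 and 0.404) and the interleukin-6 receptor gene Il6ra (0.965 and 0.706). In the interferon response Ifi44 had 1.20 and 0.888 over a miR-181 match and Ifit1, which binds foreign RNA, 1.16 and 0.424 at a G+C content of 20.9%. The antiviral kinase gene Eif2ak2 had 1.09 and was listed at 0 in KO. Of the editing targets, the transcription factor gene Atf2 had 1.16 and 0.620, Usp25 0.703 and 0.616, and the lipid flippase subunit gene Tmem30a 0.626 and 0.128.

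Traffic, cytoskeletal and lipid genes were near or under the table's share. Dock10, a guanine nucleotide exchange factor, had 2.12 in WT and 0.295 in KO in 3 WT libraries over matches for miR-19 and miR-30, and the actin-severing gene Cfl2 1.65 and 0.598. The lysosomal sulfatase gene Ids had 1.74 and 0.134 in 3 WT libraries, and Nbr1, an autophagy receptor, 1.09 and 0.829 at 30 nt from the 3′ end. Etnk1, an ethanolamine kinase of phospholipid synthesis, had 1.16 and 0.244, the oxysterol-binding gene Osbpl2 1.12 and 0.0940 over a miR-26 match, and the lipid droplet gene Plin3 1.01 and 0.109. In kinase and phosphatase genes 55 of 209 footprints (26.3%) were WT-only, with Dyrk1a at 1.65 and 0.395 over a miR-101 match and Hipk3 at 1.10 and 0.384.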

How the data were processed

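The authors deposited 1 table of footprints from Ago HITS-CLIP of 6 libraries (3 WT, 3 KO). Per the series design text, reads of the mRNA size class were aligned to mm9, clustered and cut to a footprint around the peak. The submitters' processing notes name Bowtie 0.12.8 and bedtools. Occupancy was deposited by the authors as a ratio of footprint signal to transcript expression, 1 combined value per genotype. Beside it the authors deposited how many libraries of a genotype held each footprint. How libraries were combined or scaled is not stated.

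Footprints were placed on NCBIM37 (mm9) with GENCODE vM1 by strand, 3′ UTR first. Distances along a 3′ UTR were measured from the middle of the footprint, on the longest annotated 3′ UTR that it overlapped. A footprint near an annotated end can thus reach past it. Log2 ratios used a pseudocount of 0.00161. Medians have 95% order-statistic intervals and shares 95% Wilson intervals, both over footprints, and intervals cover no replicate error. With 1 value per genotype and a choice by library numbers, no p-value was computed. Annotation, site search and intervals were tested on simulated data. Named genes are those of highest WT occupancy (15 listed at 0, 15 above 0 in KO, 10 of 3 WT libraries, 3 per list, 2 per miRNA family), the 5 lowest and 5 highest ratios, and the 10 genes with most WT-only footprints. A few of these are not reported here. The footprints, lists and rules were chosen with earlier results of these data known.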

Additional observations from a re-analysis of the deposited data

How the results depend on the processing

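No paired analysis was possible because the table holds 1 combined value per genotype, and for the same reason no library could be left out. Of 39 alternative values, 23 stayed within the interval or within 1.5 times of the main value and 1 turned its sign. The choice of footprints sets their number: 112 with 3 WT libraries only, 290 with KO listed at 0 and 874 with WT occupancy at or above its median. The median log2 ratio of -1.32 became -0.23 with a pseudocount of 1, -1.07 in footprints above 0 in KO and -2.64 with 3 WT libraries, and the count of 1054 at least 2-fold lower became 79, 764 and 109. The last setting was chosen after seeing the data. The G+C difference of -6.34 points was -7.94 in the central 63 nt and -4.95 with 3 WT libraries. AUUUA differed by 4.94 points, by 2.20 below and by -0.34 at or above the median G+C content, and the cause was not tested. Requiring 50% overlap left 94.3% in 3′ UTRs, the shortest 3′ UTR moved the median position to 50.4%, and the within-gene share of 67.4% became 74.3% with 2 footprints of each kind. Keeping only footprints with WT at or above the median, 13 of 14 list shares stayed within their intervals, and inflammatory signalling moved from 25.3% to 38.9%. Depth is unknown, so a footprint that no KO library held may lie under the detection limit of those libraries or be absent, and these cannot be told apart.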
